A study of Saccharomyces cerevisiae with 12 samples.

Results

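Budding yeast libraries labelled with mutations of both CYC8 and SNF2 (called cyc8 snf2 or the double mutant, n = 4) were compared with libraries labelled with the CYC8 mutation alone (cyc8, n = 3), to ask which transcript levels in cyc8 cells depend on Snf2. The comparison covered every nuclear gene of the deposited count table, 7095 of its 7150 genes, in 7 of the 12 libraries of the series. Of the 7095, 6152 had enough counts to be tested. Cells grew to log phase in YPD with 2% glucose at 30 °C, total RNA was taken with hot phenol and depleted of ribosomal RNA, and paired ends were read on a HiSeq instrument. The cyc8 libraries came from the strain YAFTCD4, in the background BY4741 and of mating type a, with his3del1, leu2del0, met15del0, ura3del0 and cyc8::KAN. The double mutant libraries came from YDB1.7, in the background FY2083 and also of mating type a, with the disruptions snf2::LEU2 and cyc8::URA3 and the alleles ura3del0, lys2del0, met15del0, his3del200 and trp1-del63. Both groups therefore carried a cyc8 mutation, with different markers, and the background changed together with the snf2 label, so that the strain and the loss of Snf2 cannot be told apart here. Wild type (wt, BY4741 with his3del1, leu2del0, met15del0 and ura3del0, n = 3) and snf2 libraries (FY2083 with the deletions and the trp1 allele listed for the double mutant and snf2::LEU2, n = 2) were used for levels set beside the comparison and for a second difference, snf2 against wt. Each group was 1 named strain, and no label says that its libraries came from separate cultures, so p-values measure the spread between libraries, which may be technical.

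Cyc8, also called Ssn6, and Tup1 make up a corepressor brought to promoters by DNA-binding repressors, where it keeps nucleosomes in place and genes off. Its known targets include genes for flocculation, for growth without oxygen, for the use of sugars other than glucose, for DNA damage and for mating type. Snf2 is the ATPase of Swi-Snf, a remodeller that slides and evicts nucleosomes and is needed for the induction of many of those genes, with SUC2, the invertase gene, the classical case.

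The 7 libraries held 16378131 to 27230570 counts, and by counting error alone a count of 0 allows a level of up to 0.110 to 0.183 CPM, the count scaled to a common library size. The median coefficient of variation between libraries was 8.8% in cyc8 and 9.9% in the double mutant. Levels below are CPM with TMM scaling, given as mean ± SD, and log2 changes, also called log2 fold changes, are the double mutant against cyc8, ± SE. A called gene had an edgeR adjusted p below 0.05 and at least a 2-fold difference in level. The mutated genes did not lose their transcripts: CYC8 stood at 59.3 ± 4.72 CPM in cyc8 and 53.2 ± 2.58 in the double mutant, and SNF2 at 79.6 ± 8.48 and 109 ± 4.42 CPM, a log2 fold change of 0.45 ± 0.09 that did not reach 2-fold (edgeR adjusted p = 0.00269). Both would also be counted from what a disruption leaves behind, so the groups are called by their labels and each direction stands for the labels. TUP1 had a log2 fold change of -0.04 ± 0.06 (edgeR adjusted p = 0.673), whose sign turned under upper-quartile scaling (0.00) and without cyc8 replicate 1 (0.02). Most markers followed the labels. LEU2 rose from 0.102 to 269 CPM, URA3 from no count to 18.3 CPM (at least 126-fold over a floor of 3 counts per library), LYS2 fell from 230 to 0.321 CPM, and HIS3 had 2 counts in all 4 double mutant libraries together against 79.3 CPM in cyc8, although his3del1 is listed there. TRP1, with the allele trp1-del63 in the double mutant, had 53.7 and 54.8 CPM. Of the genes beside a marker, MRM1 next to HIS3, named after its values were seen, was lower (22.5 against 8.75 CPM) and SUP53 next to LEU2 was at least 9.44-fold higher over the same floor. None of these is read as a response to Snf2.

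In the double mutant, 186 nuclear genes were lower than in cyc8 (3.02% of those tested) and 54 were higher (0.878%), or 3.9% in either direction. Without the markers and their called neighbours, 183 lower and 51 higher genes were left. By mean levels, with a level under the floor of 3 counts per library set to that floor, 64 of the 183 fell at least 4-fold, 29 at least 8-fold and 8 at least 32-fold. Of the 51 higher genes, 8 rose at least 4-fold, 4 at least 8-fold and 0 at least 32-fold. At least 10 CPM in 1 of the groups was reached by 137 of the 186 lower genes, and 32 of the 54 higher genes stayed below 5 CPM in both. The median log2 fold change was -1.65 over the 186 lower genes, 1.45 over the 54 higher genes (-1.65 and 1.47 from the floored mean levels) and 0.01 over all nuclear genes tested, whose quartiles were -0.18 and 0.18. In 184 of the 186 lower and 52 of the 54 higher genes no cyc8 library overlapped a double mutant library. This follows largely from the calls, which rest on the same libraries, and adds no support to them. The share without overlap among all genes tested was not counted.

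**Figure D1:**
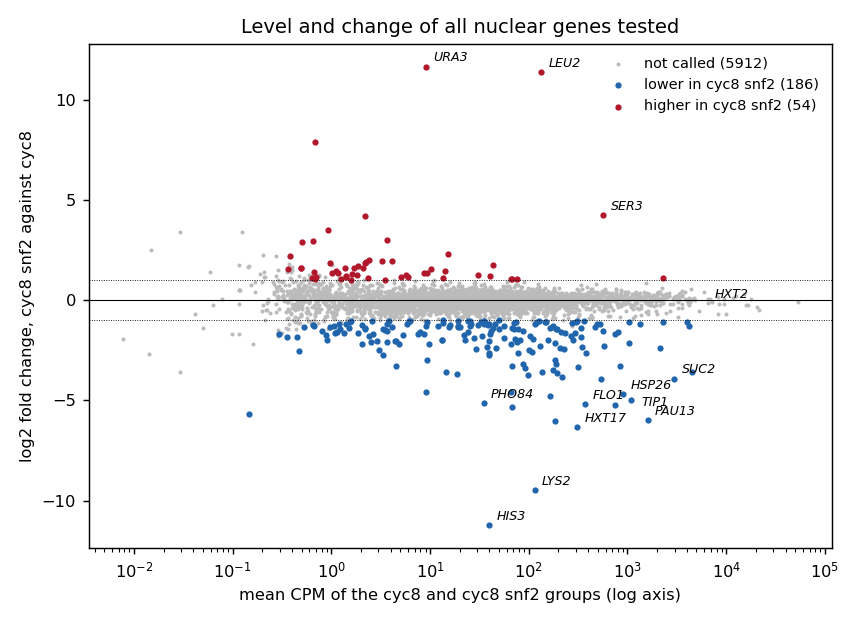
Log2 fold change of cyc8 snf2 against cyc8 (y) against the mean CPM of the 2 groups (x, log axis) for the 6152 nuclear genes tested. The 186 genes called lower reach far into the high levels, the 54 called higher lie mostly at low levels, and dotted lines mark a 2-fold change.

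Cell wall genes held many of the deepest falls. FLO1, which encodes the main cell surface lectin of flocculation, had 799, 686 and 680 CPM in the cyc8 libraries and 21.0, 20.9, 21.5 and 16.1 CPM in the double mutant libraries. The groups lay far apart, with the fourth double mutant library the lowest. FLO1 (chromosome I, 203403 to 208016, build R64) thus fell 36.3-fold (log2 change -5.18 ± 0.13, edgeR adjusted p = 4.3e-12), and its level in wt was 4.29 CPM. FLO11, the wall glycoprotein of filamentous growth, had 162, 115 and 106 CPM in cyc8 and 6.38, 5.73, 3.51 and 5.47 CPM in the double mutant. It fell 24.2-fold (log2 change -4.58 ± 0.20, edgeR adjusted p = 8.49e-09) and stood at 2.92 CPM in wt. The other flocculins went down by less. FLO5 fell from 156 ± 24.5 to 17.2 ± 2.21 CPM (log2 change -3.17 ± 0.12, edgeR adjusted p = 2.89e-10) and FLO9 from 350 ± 24.3 to 114 ± 8.69 CPM (log2 change -1.61 ± 0.08, edgeR adjusted p = 3.82e-09). FLO10, named after its values were seen, had 81.1 ± 14.4 and 43.4 ± 7.86 CPM and did not reach 2-fold (log2 change -0.90 ± 0.14, edgeR adjusted p = 0.000781). So 4 of 5 flocculins were lower, with a median of -3.17. FLO1 shares 53.8% and FLO9 63.4% of their 50-base words with other loci, so that reads can be split among the copies.

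PAU genes encode small seripauperin wall proteins made in anaerobic and cold cells. Of 18 PAU genes tested, 11 were lower and 0 higher (median -1.87, with 13 lower and 0 higher at an unadjusted p below 0.05). Unadjusted counts, here and below, were not set beside a share over all genes tested. That share is not small: 643 of the 6152 were lower and 525 higher at an adjusted p below 0.05 with no minimum fold. PAU13 (chromosome VIII, 11792 to 13291) had 3594, 3056 and 2800 CPM in cyc8 and 47.5, 53.6, 48.3 and 49.6 CPM in the double mutant, a 63.3-fold fall (log2 change -5.98 ± 0.13, edgeR adjusted p = 9.59e-13). PAU5, of whose 50-base words 7.2% are found elsewhere, had 1594, 1438 and 1367 CPM in cyc8 and 39.7, 38.6, 36.8 and 40.8 CPM in the double mutant. In both genes the 4 double mutant libraries lay close together and far below every cyc8 library, yet above the wt means of 0.687 and 1.71 CPM. The log2 fold change of PAU5 was -5.23 ± 0.14 (edgeR adjusted p = 9.47e-12). PAU24, named after its values were seen, fell 11.8-fold but from 8338 ± 1700 CPM, so that 707 ± 137 CPM were left in the double mutant (log2 change -3.56 ± 0.23, edgeR adjusted p = 6.92e-07). Of the 50-base words of PAU24, 52.9% are found elsewhere. The lower genes PAU9, PAU11, PAU12, PAU15, PAU19 and PAU20 also share over 50%, so that reads can be split among the copies.

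The DAN, TIR and TIP1 mannoproteins, which replace the aerobic wall proteins in anaerobic or cold cells, were all lower, 7 of 7 with a median of -1.60, but by very different amounts. TIP1, a cold-induced wall mannoprotein, had 2408, 2032 and 1830 CPM in cyc8 and 82.6, 59.7, 62.3 and 55.7 CPM in the double mutant. All 4 double mutant libraries were also below the wt mean of 299 CPM, and the fall was 32.1-fold (log2 change -5.00 ± 0.20, edgeR adjusted p = 5.9e-09). TIR3 fell 12.6-fold, from 360 ± 33.8 to 28.6 ± 2.92 CPM (log2 change -3.65 ± 0.11, edgeR adjusted p = 2.13e-11). At the other end stood TIR1, with 6494, 6140 and 5385 CPM in cyc8 and 2622, 2313, 2461 and 2284 CPM in the double mutant. The groups did not overlap, but 2420 ± 155 CPM were left, against 65.2 CPM in wt, and the fall was 2.48-fold (log2 change -1.31 ± 0.11, edgeR adjusted p = 1.26e-06). DAN1 likewise had 1406, 1161 and 1092 CPM in cyc8 and 514, 354, 411 and 328 CPM in the double mutant, a 3.04-fold fall (log2 change -1.60 ± 0.24, edgeR adjusted p = 0.000871). Among 20 wall proteins of aerobic cells 3 were lower (median -0.23), among them PIR3, which binds beta-glucan, at 115 ± 18.0 against 29.6 ± 3.96 CPM (log2 change -1.96 ± 0.13, edgeR adjusted p = 1.3e-07). Of 10 daughter cell separation genes 1 was lower, EGT2, a wall endoglucanase expressed early in G1, at 247 ± 8.20 against 98.5 ± 14.4 CPM (log2 change -1.33 ± 0.12, edgeR adjusted p = 3.07e-06).

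**Figure D2:**
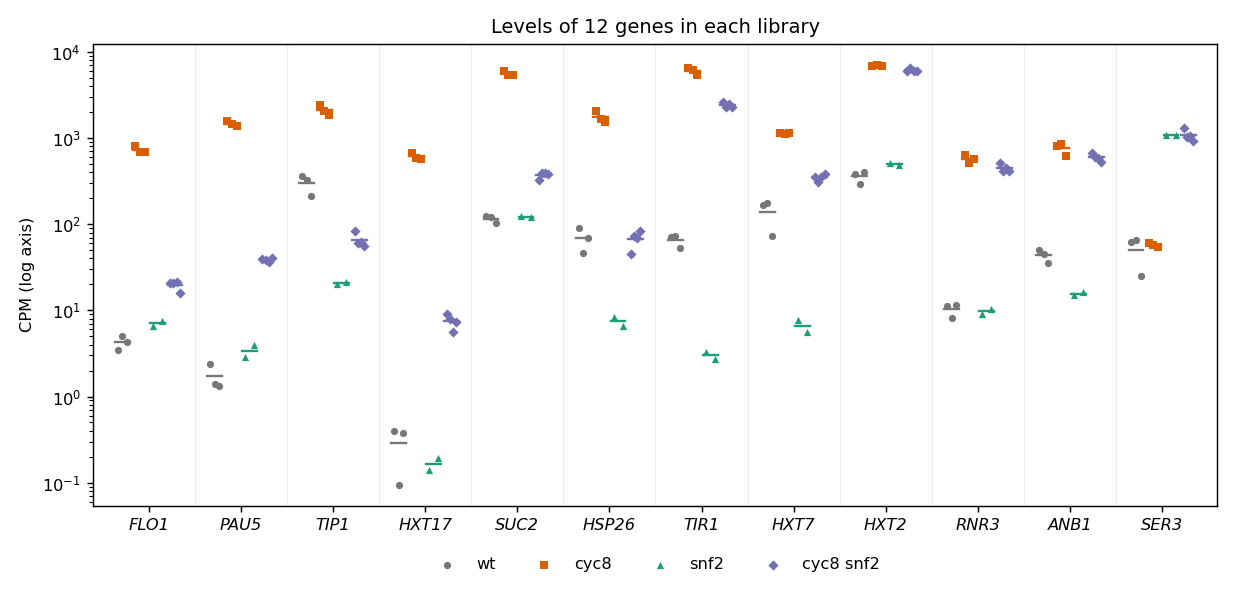
CPM (y, log axis) of 12 genes in each of the 12 libraries, with a bar at the mean of each group. FLO1, PAU5, TIP1, HXT17, SUC2 and HSP26 lie far lower in cyc8 snf2 than in cyc8, TIR1 and HXT7 lie between cyc8 and the other groups, HXT2, RNR3 and ANB1 stay high in cyc8 snf2, and SER3 is high in snf2 and cyc8 snf2.

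Sugar genes divided in the same way. The promoters of HXT17, SUC2 and HXT2 are shown because these genes carry the contrast, with deep falls in HXT17 and SUC2 and little change in HXT2. Each sequence holds the 250 bases before the 5′ end of the gene model on the plus strand of the RefSeq genome R64, at chrXIV:772407-772656 for HXT17, chrIX:37066-37315 for SUC2 and chrXIII:287317-287566 for HXT2. Capitals mark TATAAA, the core of a TATA box, and CGGGG, the core of the element bound by the glucose repressor Mig1, each searched on both strands.
HXT17 promoter: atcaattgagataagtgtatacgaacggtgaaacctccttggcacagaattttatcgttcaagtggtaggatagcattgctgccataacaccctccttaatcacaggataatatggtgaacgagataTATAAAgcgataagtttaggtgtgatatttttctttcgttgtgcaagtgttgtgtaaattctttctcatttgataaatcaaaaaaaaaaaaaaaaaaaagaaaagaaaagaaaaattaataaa
SUC2 promoter: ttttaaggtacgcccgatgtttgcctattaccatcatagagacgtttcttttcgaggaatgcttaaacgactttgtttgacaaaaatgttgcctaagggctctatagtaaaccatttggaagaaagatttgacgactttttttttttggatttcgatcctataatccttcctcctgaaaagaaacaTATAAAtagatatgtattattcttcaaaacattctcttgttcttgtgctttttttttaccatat
HXT2 promoter: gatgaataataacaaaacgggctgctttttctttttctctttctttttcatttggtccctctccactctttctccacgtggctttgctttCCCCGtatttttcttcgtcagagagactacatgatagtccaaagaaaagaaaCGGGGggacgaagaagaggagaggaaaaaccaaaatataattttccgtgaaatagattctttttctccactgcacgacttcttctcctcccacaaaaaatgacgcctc
The windows of HXT17 and SUC2 held TATAAA once each and no CGGGG, and that of HXT2 held CGGGG in both orientations and no TATAAA. Of 5683 promoter windows of tested genes, 40.3% held TATAAA and 9.94% CGGGG. Of the 174 windows of lower genes, 48.3% held TATAAA and 10.9% CGGGG. Other genes broke the pattern of these 3. The window of HSP26, which also fell deeply, held no TATAAA, and that of SER3, which rose, held it once. The SER3 window also lies before SRG1, a noncoding RNA gene that overlaps the SER3 model, so its TATAAA cannot be assigned to SER3. Bases further upstream were not searched, so a window without CGGGG does not mean a promoter without it. Whether either motif goes with the falls was not tested.

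HXT17 and HXT13, closely related minor hexose transporters that carry polyols, had the deepest falls outside the marker genes. HXT17 (chromosome XIV, 772657 to 774351) had 670, 588 and 573 CPM in cyc8 and 9.18, 7.89, 5.62 and 7.41 CPM in the double mutant. HXT13 had 379, 378 and 327 CPM in cyc8 and 7.94, 5.37, 4.02 and 4.28 CPM in the double mutant. All double mutant libraries were below 10 CPM for both genes, and above the wt means of 0.291 and 0.256 CPM. HXT17 fell 81.1-fold (log2 change -6.33 ± 0.16, edgeR adjusted p = 2.07e-11) and HXT13 66.8-fold (log2 change -6.05 ± 0.22, edgeR adjusted p = 4.08e-09). The mannitol dehydrogenase genes beside them, DSF1 next to HXT13 and MAN2 next to HXT17, fell by less. DSF1 went from 329 ± 27.5 to 41.7 ± 6.18 CPM and MAN2 from 451 ± 49.7 to 115 ± 6.28 CPM (log2 changes -2.98 ± 0.15 and -1.97 ± 0.08, edgeR adjusted p = 2.34e-08 and 1.36e-09). YNR071C, on the other side of HXT17, fell 10.1-fold, from 571 ± 124 to 56.3 ± 0.736 CPM (log2 change -3.34 ± 0.13, edgeR adjusted p = 1.07e-09). These 3 neighbours were named after their values were seen, and over 50% of the 50-base words of DSF1 and MAN2 occur elsewhere.

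SUC2, the gene of secreted invertase, which cleaves sucrose outside the cell, had 6006, 5428 and 5365 CPM in cyc8 and 325, 391, 388 and 383 CPM in the double mutant. Replicate 1 was the lowest of a tight double mutant group, whose mean of 372 ± 31.1 CPM stood above the 116 CPM of wt. SUC2 (chromosome IX, 37316 to 39203) fell 15.1-fold (log2 change -3.91 ± 0.10, edgeR adjusted p = 4.3e-12). HXT2, a high-affinity glucose transporter, had 6914, 7036 and 6771 CPM in cyc8 and 6041, 6553, 5990 and 6040 CPM in the double mutant. Its groups did not overlap, but the difference was small (log2 change -0.17 ± 0.10, edgeR adjusted p = 0.245), and the double mutant kept a level far above the wt mean of 359 CPM. Other major transporters lay between. The high-affinity transporter HXT7 had 1150, 1107 and 1143 CPM in cyc8 and 348, 308, 356 and 386 CPM in the double mutant (log2 change -1.70 ± 0.24, edgeR adjusted p = 0.000572), with 72.8% of its 50-base words found elsewhere. The low-affinity transporter HXT1 fell from 301 ± 19.1 to 69.6 ± 10.5 CPM (log2 change -2.11 ± 0.44, edgeR adjusted p = 0.00766). HXT4 had 5464 ± 120 and 2544 ± 292 CPM (log2 change -1.10 ± 0.29, edgeR adjusted p = 0.024), a call lost without any 1 of 6 libraries (each but double mutant replicate 1, adjusted p 0.0514 to 0.0589), under limma-voom (adjusted p = 0.0622) and with a replicate block (adjusted p = 0.0628). HXT3 did not reach 2-fold (4192 ± 332 and 2338 ± 492 CPM, log2 change -0.84 ± 0.17, edgeR adjusted p = 0.00468).

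Of 7 major hexose transporters 3 were lower (median -0.84) and of 7 minor ones 4 (median -1.52), with 0 higher in either list. Only HXT17 and HXT13 of the minor ones were counted when a mean of at least 100 counts was required, since HXT15 and HXT10 stood at 2.06 ± 0.644 and 1.21 ± 0.271 CPM in cyc8. HXT15, of whose words 94.2% occur elsewhere, had a log2 change of -1.65 ± 0.31 (edgeR adjusted p = 0.0047). HXT10 had -1.52 ± 0.49 (edgeR adjusted p = 0.0457), a call lost with a replicate block (adjusted p = 0.149) and without any 1 of 6 libraries (each but double mutant replicate 2, adjusted p 0.073 to 0.145). In the list of sucrose, maltose and isomaltose use 2 of 12 were lower (median -0.33), SUC2 and the isomaltase IMA5 (52.2 ± 3.00 against 23.0 ± 1.81 CPM, log2 change -1.18 ± 0.09, edgeR adjusted p = 4.22e-07). IMA2, another isomaltase, kept 445 ± 20.4 of 588 ± 9.90 CPM (log2 change -0.40 ± 0.09, edgeR adjusted p = 0.00751), against 5.10 CPM in wt. Among 20 glycolysis and fermentation genes 2 were lower (median -0.27). TDH1, a glyceraldehyde-3-phosphate dehydrogenase isozyme of resting and stressed cells, fell 5.24-fold, from 3582 ± 694 to 684 ± 44.3 CPM (log2 change -2.39 ± 0.14, edgeR adjusted p = 8.9e-08). PDC5, a minor pyruvate decarboxylase, had 303, 133 and 120 CPM in cyc8, with the first library apart from the others, and 31.0 ± 0.924 CPM in the double mutant (log2 change -2.58 ± 0.27, edgeR adjusted p = 6.22e-05). No gene was called among 18 of the tricarboxylic acid cycle (median -0.18, 8 lower and 1 higher at an unadjusted p below 0.05) or 33 of the nuclear respiratory chain and ATP synthase (median -0.28, 21 lower and 0 higher unadjusted). In the latter list 31 of 33 had a log2 fold change below 0, none of them below -0.63. The share below 0 among all nuclear genes tested was not counted, but their median was 0.01.

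Several genes high in cyc8 and low in wt stayed high in the double mutant. RNR3, the damage-induced large subunit of ribonucleotide reductase, had 640, 519 and 564 CPM in cyc8 and 509, 411, 454 and 419 CPM in the double mutant. These ranges did not overlap, though by little, and the log2 fold change of -0.36 ± 0.11 was under 2-fold (edgeR adjusted p = 0.0375), against 10.3 CPM in wt. The small subunit genes RNR2, named after its values were seen, and RNR4 had log2 fold changes of 0.15 ± 0.09 and -0.38 ± 0.07 (edgeR adjusted p = 0.228 and 0.00199). The reductase inhibitor gene HUG1 stood higher in the double mutant, at 432 ± 60.7 against 253 ± 39.8 CPM, without reaching 2-fold (log2 change 0.77 ± 0.18, edgeR adjusted p = 0.0107). Of 7 ribonucleotide reductase and Crt1 target genes none was called by edgeR (median -0.09, 2 lower and 1 higher unadjusted). Of the hypoxic genes that Rox1 represses, 0 of 8 were called (median -0.02, 2 lower and 1 higher unadjusted). With 3.9% of all genes tested called in either direction, lists this short would hold few calls in any case. Not every gene of the hypoxic list stood higher in cyc8 than in wt. ANB1, the hypoxic form of the translation factor eIF5A, had 811, 854 and 617 CPM in cyc8 and 673, 595, 591 and 525 CPM in the double mutant, which overlapped (log2 change -0.35 ± 0.13, edgeR adjusted p = 0.0727). HEM13, the oxygen-requiring step of heme synthesis, had 2062, 1754 and 1920 CPM in cyc8 and 1817, 1239, 1230 and 905 CPM in the double mutant, also overlapping (log2 change -0.56 ± 0.23, edgeR adjusted p = 0.122).

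A few heat shock and stress genes fell deeply. The promoter of HSP26, a small heat shock chaperone that holds unfolding proteins, is shown for its stress element. It covers the 250 bases before the gene model, chrII:381598-381847 on the plus strand of R64, with AGGGG, the element of the stress factors Msn2 and Msn4, in capitals as read on the other strand.
HSP26 promoter: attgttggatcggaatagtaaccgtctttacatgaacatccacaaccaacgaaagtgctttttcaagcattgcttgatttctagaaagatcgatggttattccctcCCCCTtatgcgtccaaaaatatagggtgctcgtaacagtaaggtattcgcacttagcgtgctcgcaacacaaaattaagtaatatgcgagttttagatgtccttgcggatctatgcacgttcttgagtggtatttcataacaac
AGGGG was found once on either strand of this window, and in 18.8% of all 5683 windows. The window held no TATAAA and no CGGGG. HSP26 (chromosome II, 381848 to 382838) had 2035, 1668 and 1533 CPM in cyc8 and 44.8, 72.4, 68.9 and 83.9 CPM in the double mutant. The groups lay far apart, and the double mutant mean of 67.5 ± 16.5 CPM was near that of wt, 69.2 CPM. The fall was 25.9-fold (log2 change -4.69 ± 0.26, edgeR adjusted p = 2.85e-07). HSP30, a stress-induced membrane protein that restrains the plasma membrane proton pump, fell 14.3-fold from 410 ± 108 to 28.6 ± 6.92 CPM (log2 change -3.84 ± 0.40, edgeR adjusted p = 7.39e-05). YRO2, a related membrane protein, had 315 ± 73.4 and 11.5 ± 0.939 CPM, a 27.4-fold fall (log2 change -4.78 ± 0.27, edgeR adjusted p = 4.12e-07). HSP12, which stabilises membranes, had 1748, 1659 and 1618 CPM in cyc8 and 249, 435, 311 and 504 CPM in the double mutant. Its 4 double mutant libraries differed more among themselves, and all stayed above the 22.3 CPM of wt (log2 change -2.16 ± 0.24, edgeR adjusted p = 8.64e-05).

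Most genes of the stress lists were not called. In the list of 21 heat shock proteins 3 were lower (median -0.12), namely HSP26, HSP30 and HSP12. HSP42, the other small heat shock chaperone, was not called, at 93.7 ± 21.5 and 58.1 ± 26.5 CPM in groups that overlapped (log2 change -0.69 ± 0.38, edgeR adjusted p = 0.234). The general stress list leaned lower, with 5 of 20 called lower (median -0.47, 10 lower and 1 higher unadjusted), or 3 under upper-quartile scaling. One of them was CTT1, the cytosolic catalase, with 123 ± 13.7 and 28.9 ± 2.87 CPM (log2 change -2.09 ± 0.32, edgeR adjusted p = 0.00112). Of 19 glycogen and trehalose genes 3 were lower (median -0.49, 9 lower unadjusted). GSY2, the main glycogen synthase, fell from 282 ± 18.1 to 103 ± 16.1 CPM (log2 change -1.45 ± 0.24, edgeR adjusted p = 0.00171). GPH1, glycogen phosphorylase, had 130 ± 12.6 and 44.1 ± 5.74 CPM (log2 change -1.56 ± 0.30, edgeR adjusted p = 0.00518), on a model of which 89.0% is shared with a neighbour on that strand. Osmotic stress genes were lower in 2 of 12 cases (median -0.26), and STL1, the glycerol importer, kept 21.1 ± 3.45 of 48.7 ± 7.31 CPM against 0.392 CPM in wt (log2 change -1.21 ± 0.14, edgeR adjusted p = 3.87e-05). No oxidative stress gene of 17 was called by edgeR (median -0.02, 5 lower and 1 higher unadjusted). PDR15, a drug efflux pump, was the 1 lower gene of 12 in pleiotropic drug resistance, at 445 ± 20.2 against 142 ± 11.4 CPM (log2 change -1.65 ± 0.09, edgeR adjusted p = 1.45e-08).

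Some nutrient uptake genes were lower. PHO84, the high-affinity phosphate transporter, had 118, 54.9 and 31.3 CPM in cyc8, with the first library the highest, and 2.59, 2.06, 1.15 and 1.73 CPM in the double mutant. Both groups were far below the 1235 CPM of wt, and the fall of 36.1-fold (log2 change -5.14 ± 0.45, edgeR adjusted p = 1.58e-05) was -4.49 without cyc8 replicate 1. PHO89, the sodium-phosphate cotransporter, had 717, 567 and 435 CPM in cyc8 and 85.0, 118, 124 and 126 CPM in the double mutant (log2 change -2.34 ± 0.16, edgeR adjusted p = 9.5e-07). PHO3, a constitutive acid phosphatase, fell from 526 ± 87.0 to 149 ± 11.8 CPM (log2 change -1.82 ± 0.10, edgeR adjusted p = 2.89e-08). The repressible acid phosphatase PHO5 was low in both groups, at 4.44 ± 2.26 and 2.50 ± 0.448 CPM (edgeR adjusted p = 0.123), and 70.2% of its model is shared with a neighbour on that strand. In the phosphate regulon 7 of 18 were lower (median -0.58), or 4 without cyc8 replicate 1.

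Siderophore uptake genes, which take up iron bound to secreted or foreign chelators, were lower in 4 of 8 cases (median -0.71). FIT2, a wall mannoprotein that retains siderophores, had 653, 1626 and 784 CPM in cyc8, with the second library apart, and 50.0, 60.6, 75.2 and 82.2 CPM in the double mutant (log2 change -3.93 ± 0.33, edgeR adjusted p = 1.18e-05). The siderophore transporters ARN1 and SIT1 fell from 172 ± 45.1 to 30.1 ± 8.66 and from 214 ± 46.7 to 44.2 ± 20.8 CPM (log2 changes -2.51 ± 0.28 and -2.28 ± 0.38, edgeR adjusted p = 0.000116 and 0.00186). FIT3 had 1425 ± 528 and 667 ± 182 CPM (log2 change -1.09 ± 0.25, edgeR adjusted p = 0.0123), which did not reach 2-fold without cyc8 replicate 2 (-0.75) or double mutant replicate 1 (-0.91). The multicopper oxidase FET3 of reductive uptake was not called (1466 ± 287 and 800 ± 363 CPM, edgeR adjusted p = 0.115), nor was any of the 19 genes of its list (median 0.01, 3 lower and 3 higher unadjusted). Of 9 zinc and copper genes 2 were lower (median -0.19), among them ZRT1, the high-affinity zinc transporter, which fell from 136 ± 13.2 to 21.7 ± 4.69 CPM (log2 change -2.65 ± 0.17, edgeR adjusted p = 4.99e-07). Of 21 amino acid and peptide permeases 7 were lower (median -0.46). The tyrosine permease TAT1 and the branched-chain permease BAP2 had log2 fold changes of -1.97 ± 0.14 and -1.81 ± 0.10 (edgeR adjusted p = 5.56e-07 and 1.7e-08), and the proline permease PUT4 and the general permease GAP1 of -1.95 ± 0.10 and -1.61 ± 0.16 (edgeR adjusted p = 7.17e-09 and 2.02e-05). GAP1 kept 104 ± 27.1 of 317 ± 2.47 CPM, against 13.7 CPM in wt. The peptide importer PTR2 was not called (1219 ± 56.2 and 1017 ± 207 CPM, log2 change -0.26 ± 0.18, edgeR adjusted p = 0.354). GDH1, the glutamate dehydrogenase that assimilates ammonium, fell from 1853 ± 71.5 to 806 ± 190 CPM (log2 change -1.20 ± 0.17, edgeR adjusted p = 0.000454). PDR11, a sterol importer, fell from 98.4 ± 8.84 to 45.0 ± 2.64 CPM (log2 change -1.13 ± 0.10, edgeR adjusted p = 3.07e-06).

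Among developmental genes, IME1, the master inducer of meiosis, had 59.7, 54.4 and 75.9 CPM in cyc8 and 13.9, 11.2, 11.3 and 12.9 CPM in the double mutant. It fell 5.14-fold (log2 change -2.36 ± 0.12, edgeR adjusted p = 9.05e-09). IRT1, a noncoding RNA transcribed over the IME1 promoter and known to repress it, fell too, from 35.8 ± 6.95 to 9.13 ± 0.819 CPM (log2 change -1.97 ± 0.13, edgeR adjusted p = 2.15e-07), and was named after its values were seen. DIT1, an enzyme of the spore wall, fell from 68.9 ± 28.1 to 10.4 ± 1.32 CPM (log2 change -2.72 ± 0.22, edgeR adjusted p = 3.1e-06). In the meiosis list 3 of 20 were lower and 1 was higher (median -0.28). ASH1, the daughter-cell repressor of mating-type switching, fell from 63.4 ± 2.36 to 27.6 ± 1.20 CPM (log2 change -1.20 ± 0.07, edgeR adjusted p = 4.54e-08). In the list of DNA-binding proteins that recruit Tup1-Cyc8, 3 of 18 were lower (median -0.10). The list also holds ACA1, an ATF/CREB family activator that was not shown here to be such a recruiter. ACA1 was 1 of the 3 (97.3 ± 13.7 against 37.6 ± 4.55 CPM, log2 change -1.37 ± 0.11, edgeR adjusted p = 1.41e-06). PHD1, a regulator of filamentous growth, fell from 205 ± 4.82 to 95.7 ± 6.40 CPM (log2 change -1.10 ± 0.09, edgeR adjusted p = 8.08e-07). Mating genes of a cells did not move past 2-fold, with 0 of 7 called (median -0.28, 4 lower and 0 higher unadjusted). STE2, the alpha factor receptor, had 148 ± 12.3 and 138 ± 17.9 CPM (edgeR adjusted p = 0.507).

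Genes for the general machinery were not called by edgeR. This held for the 11 corepressor partner genes (median -0.04, 1 lower and 1 higher at an unadjusted p below 0.05), the 12 Swi-Snf subunits (median 0.10, 0 lower and 5 higher) and the 15 genes of SAGA and the Mediator tail (median -0.01, 3 lower and 1 higher). It also held for 20 genes of other remodellers (median 0.05, 1 lower and 4 higher), 11 histone genes (median 0.27, 0 lower and 7 higher) and 36 ribosome biogenesis genes (median 0.28, 3 lower and 8 higher). The 132 ribosomal protein genes had a median of 0.16, with log2 fold changes from -0.23 to 0.52 and 1 lower and 53 higher unadjusted. The share of all genes tested that pass the unadjusted limit was not counted.

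**Figure D3:**
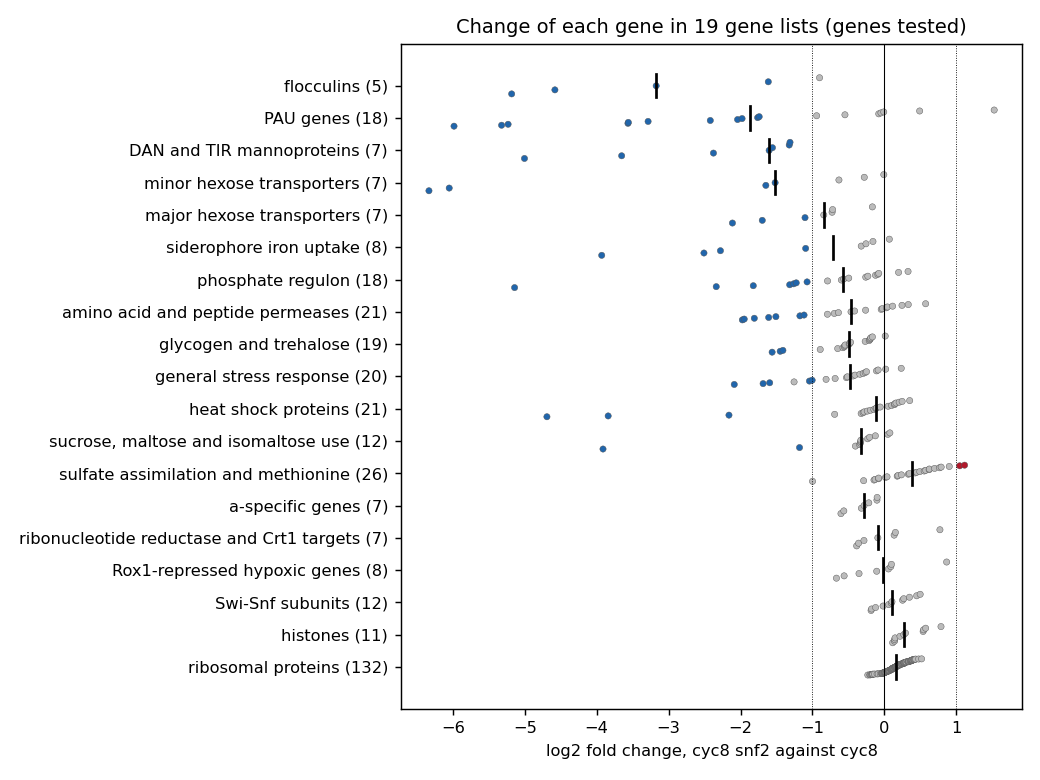
Log2 fold change of cyc8 snf2 against cyc8 for each tested gene (points) of 19 gene lists, with the number tested in brackets and a black bar at the median. Blue points were called lower, red points higher, and dotted lines mark a 2-fold change. Flocculins, PAU genes and DAN and TIR mannoproteins lie furthest to the left, and ribosomal protein genes stay within 2-fold.

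SER3, which encodes the enzyme that opens serine synthesis from 3-phosphoglycerate, had the highest log2 change of the higher genes with at least 10 CPM in 1 group, apart from the markers. Its promoter is known as a site where transcription of the noncoding RNA SRG1 keeps SER3 off in rich medium, and where Swi-Snf takes part. The 250 bases before the gene model, chrV:321963-322212 on the plus strand of R64, are shown with TATAAA in capitals. The SRG1 model (322212 to 322762) starts at the end of this window and overlaps SER3 (322213 to 324278) on the same strand. It held 18 counts in all 12 libraries together, while SER3 held 79292 in the 4 double mutant libraries. Reads in the shared stretch were thus hardly counted for SRG1, and the level of SRG1 cannot be read here. Of the SER3 model 26.6% is shared on that strand, and SER3 counts may come mostly from the rest. The window lies before both genes, and bases inside the SER3 model were not searched.
SER3 promoter: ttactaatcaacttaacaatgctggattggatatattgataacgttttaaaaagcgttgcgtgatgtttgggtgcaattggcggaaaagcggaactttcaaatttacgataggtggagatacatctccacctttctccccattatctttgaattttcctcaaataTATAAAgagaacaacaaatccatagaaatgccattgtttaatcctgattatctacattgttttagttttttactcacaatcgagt
SER3 had 60.6, 57.2 and 54.8 CPM in cyc8 and 1301, 1031, 1062 and 923 CPM in the double mutant. All double mutant libraries were far above all cyc8 libraries, 18.8-fold by the means (log2 change 4.23 ± 0.30, edgeR adjusted p = 2.41e-06). Levels were 50.7 CPM in wt and 1077 CPM in snf2.

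Methionine genes stood on the higher side. MET6, the last enzyme of methionine synthesis, rose from 1429 ± 180 to 3099 ± 457 CPM (log2 change 1.12 ± 0.14, edgeR adjusted p = 8.06e-05). MMP1, the S-methylmethionine permease, had 49.7 ± 1.75 and 103 ± 13.9 CPM (log2 change 1.05 ± 0.17, edgeR adjusted p = 0.00121), or 0.99 without double mutant replicate 2 or 3, under the 2-fold limit. These were the 2 of 26 sulfate assimilation and methionine genes called, with a median of 0.39 and 16 higher against 1 lower unadjusted. MXR1, which repairs oxidised methionine, rose from 44.0 ± 1.20 to 92.8 ± 6.87 CPM (log2 change 1.08 ± 0.12, edgeR adjusted p = 2.52e-05). OAZ1, the antizyme that sends ornithine decarboxylase to the proteasome, rose from 7.59 ± 1.16 to 20.4 ± 7.16 CPM (log2 change 1.43 ± 0.29, edgeR adjusted p = 0.00542). The open reading frames YPL025C and YGR050C rose to 25.6 ± 1.36 and 66.4 ± 12.1 CPM (log2 changes 2.33 ± 0.12 and 1.74 ± 0.17, edgeR adjusted p = 1.45e-08 and 1.55e-05).

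Some of the higher genes were weak transcripts beside or against a gene that fell. Of the 54 higher genes, 13 (24.1%) lay within 500 bases of a lower gene, 6 on the opposite strand and 7 on the same, against 25 of the 186 lower genes (13.4%) and 256 of all 6152 (4.16%). Overlap with a lower gene was found for 8 higher genes (14.8%) and for 2.02% of all. The following were named after their values were seen. TBRT, a noncoding RNA antisense to TAT1, rose from 3.40 ± 0.323 to 8.06 ± 1.78 CPM while TAT1 fell (log2 change 1.24 ± 0.21, edgeR adjusted p = 0.00121). YMR316C-B rose from 0.142 ± 0.0368 to 1.70 ± 0.260 CPM against YMR317W on the other strand, which fell from 184 ± 7.93 to 13.8 ± 2.94 CPM (log2 changes 3.51 ± 0.34 and -3.74 ± 0.19, edgeR adjusted p = 7.19e-06 and 3.97e-08). YIL163C starts 63 bases from SUC2 on the opposite strand, so that its model overlaps the promoter window shown, and rose from 0.787 ± 0.310 to 6.55 ± 0.965 CPM (log2 change 3.01 ± 0.26, edgeR adjusted p = 2.11e-06). YBR072C-A lies 21 bases beyond HSP26 and rose from 0.819 ± 0.267 to 2.57 ± 0.261 CPM (log2 change 1.62 ± 0.28, edgeR adjusted p = 0.00117). MMO1, which overlaps the start of PHD1 on the same strand, rose from 0.218 ± 0.110 to 4.17 ± 0.949 CPM (log2 change 4.19 ± 0.37, edgeR adjusted p = 2.91e-06). No source used here gives the strand setting of the counting, and reads that overlapping models share may have been left out, so levels of such pairs are uncertain.

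The snf2 label was also examined without the cyc8 mutation, as snf2 against wt. This shares no library with the comparison above but holds the same change of background. It does not hold the change from cyc8::KAN to cyc8::URA3, which only the comparison above has. There 332 nuclear genes were lower (5.4% of those tested) and 259 higher (4.21%), or 9.61% in either direction. Of the 186 genes lower here 82 were also lower there, 44.1% of this list and 24.7% of the other, and 14 were higher there. Of the 54 higher genes 26 were also higher there, 48.1% of this list and 10.0% of the other. Across 6142 genes the log2 fold changes of the comparisons had a Pearson correlation of 0.31 and a Spearman correlation of 0.18, as a description, since genes share libraries and are not independent. The difference between the comparisons, tested as an interaction, was called for 290 genes in the lower direction (4.71%) and 257 in the higher direction (4.18%), or 8.89% in all. The interaction also holds the change of the cyc8 marker, which cannot be told apart from the rest of it.

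Among the genes with deep falls in the double mutant, FLO1, PAU13 and SUC2 were not called at 2-fold in snf2 against wt. No flocculin was called there (median 0.44), and all 5 flocculins had interactions in the lower direction, FLO1 at -5.91 ± 0.20 (edgeR adjusted p = 5.85e-10), where snf2 against wt gave 0.73. Among 18 PAU genes 10 had interactions in the lower direction and 3 were higher in snf2 against wt (median 0.73), with PAU13 at -6.45 ± 0.34 (edgeR adjusted p = 2.48e-08). SUC2 had a log2 fold change of 0.08 ± 0.11 in snf2 against wt, and an interaction of -3.99 ± 0.14 (edgeR adjusted p = 6.77e-10). Their starting levels in wt were far below those in cyc8, with means of 4.29 CPM for FLO1, 0.687 CPM for PAU13 and 116 CPM for SUC2. The permease genes PUT4 and GAP1 moved in opposite directions in the comparisons, with 2.04 ± 0.17 and 2.20 ± 0.20 in snf2 against wt (interactions -3.99 ± 0.19 and -3.80 ± 0.25, edgeR adjusted p = 1.2e-08 and 8.31e-07). So did BNA2, the dioxygenase that opens NAD synthesis from tryptophan, which fell from 8.17 ± 0.699 to 3.53 ± 0.554 CPM here and rose from 3.84 to 33.4 CPM there (interaction -4.34 ± 0.28, edgeR adjusted p = 2.25e-07).

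Other genes fell in snf2 against wt and changed little, or less, in the double mutant against cyc8. PTR2 went from 458 to 4.90 CPM in snf2 against wt and had 1017 CPM in the double mutant (interaction 6.28 ± 0.35, edgeR adjusted p = 2.31e-07). The drug and quinidine exporter QDR2 and the sphingoid base transporter RSB1 had 1.53 and 0.792 CPM in snf2 but 31.2 ± 2.80 and 237 ± 43.4 CPM in the double mutant (interactions 5.47 ± 0.27 and 5.18 ± 0.28, edgeR adjusted p = 2.35e-08 and 7.17e-08). VTC3, a subunit of the polyphosphate synthase, was as low in cyc8 as in snf2 and the double mutant, at 61.9, 51.3 and 56.9 CPM, against 480 CPM in wt (interaction 3.11 ± 0.10, edgeR adjusted p = 3.44e-10). Of 18 phosphate regulon genes, 16 were lower in snf2 against wt, and 14 had interactions in the higher direction. TIR1 and HXT7 also fell further in snf2 against wt, with -4.42 ± 0.17 and -4.37 ± 0.36 (interactions 3.11 ± 0.20 and 2.68 ± 0.41, edgeR adjusted p = 1.74e-07 and 0.000792). A further set had similar log2 fold changes in both and no called interaction. TIR3 had -3.65 ± 0.11 here and -3.63 ± 0.17 there (interaction -0.03 ± 0.23, edgeR adjusted p = 0.953), YRO2 -4.78 ± 0.27 and -4.64 ± 0.37 (interaction -0.14 ± 0.41, edgeR adjusted p = 0.85), and SER3 4.23 ± 0.30 and 4.41 ± 0.32 (interaction -0.18 ± 0.39, edgeR adjusted p = 0.79). Of 26 sulfate assimilation and methionine genes, 18 were higher in snf2 against wt, and 18 had interactions in the lower direction.

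**Figure D4:**
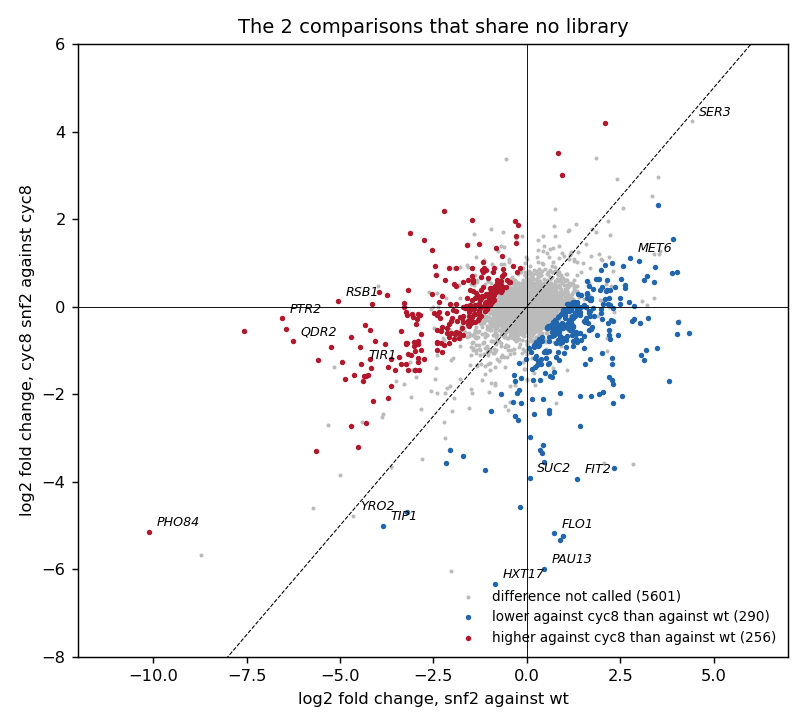
Log2 fold change of cyc8 snf2 against cyc8 (y) against that of snf2 against wt (x) for 6147 nuclear genes, without the marker genes and SUP53. Blue and red points have a called interaction, and genes on the dashed line changed equally in both. FLO1, PAU13, HXT17 and SUC2 lie low near the middle of the x axis, PTR2, QDR2 and RSB1 lie far left near 0 on the y axis, and SER3 and YRO2 lie near the line.

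Lower genes were spread unevenly along the chromosomes. Within 10 kb of a chromosome end 13 of 73 tested genes were lower (17.8%), from 10 to 20 kb 13 of 116 (11.2%), from 20 to 30 kb 16 of 145 (11.0%) and beyond 50 kb 124 of 5502 (2.25%). Of the genes tested within 10 kb, 44 of 73 had at most 50% repeated words, and of those from 20 to 30 kb 139 of 145. Among models with at most 50% repeated words the shares were 6.82% (3 of 44), 10.0%, 10.1% and 2.04% in the same order. Within 20 kb 3 genes were higher, or 1 without double mutant replicate 3. Of the 189 genes tested there 26 were lower, and their median was -0.14. The promoters of 174 lower genes held TATAAA in 48.3% of cases, against 40.3% of all windows, AGGGG in 25.9% against 18.8%, and CGGGG in 10.9% against 9.94%. TCGTATA, the core of the element of the sterol and anaerobic regulator Upc2, was found in 8.05% against 3.89%, and GCACCC, the core of the element of the iron regulator Aft1, in 6.9% against 3.47%. In the 33 windows of higher genes TCGTATA was found in 3.03% and GCACCC in 12.1% (4 windows), so GCACCC was not particular to lower genes. ATTGTT, the core of the Rox1 element, was found in 24.7% against 28.8%. CACGTG, the E box of Pho4 and Cbf1, was found in 2.3% against 3.94%, and further motifs were searched that are not given here. All motifs were searched on both strands, and a match is a match of letters, not a bound site.

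**Figure D5:**
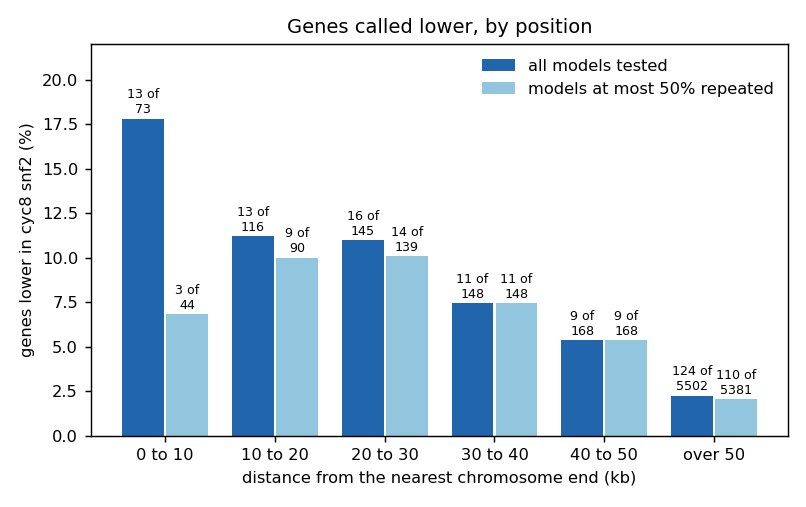
Share of tested nuclear genes called lower in cyc8 snf2 against cyc8 (y, percent) by distance from the nearest chromosome end (x, kb), for all gene models and for models with at most 50% repeated 50-base words. Numbers give lower genes of tested genes, and the share is higher near the ends than beyond 50 kb in both sets.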

How the data were processed

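Per the labels' protocols, RNA depleted of ribosomal RNA was read as paired ends. The authors deposited raw counts per gene for all 12 libraries. STAR, featureCounts and deepTools were used with build R64, per the submitters' processing notes, with versions, settings and strandedness not given in the sources used here. Left out were 4 lines without a usable gene name and 12 ribosomal RNA genes (2 counts in all). All 12 libraries entered 1 fit with a mean per group in edgeR 4.0.16 (R 4.3.3), with TMM scaling, the filter filterByExpr and robust quasi-likelihood F tests. P-values were adjusted over 6171 genes by Benjamini and Hochberg, and counts are over nuclear genes. Called genes had an adjusted p below 0.05 and a log2 fold change of 1 or more in either direction. The interaction was cyc8 snf2 minus cyc8, less snf2 minus wt. Library pairs of each group differed by more than counting noise (chi-square per degree of freedom 6.89 to 84.49 over all groups), so none was merged.

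Genes could be named that were mutated, markers or next to markers, the 15 highest and 15 lowest called genes with at least 10 CPM in 1 group and no overlap, up to 4 members per list with the largest changes, the 10 highest and 10 lowest interactions, and a short list of known targets. Only part of them is named. The comparison, the 59 lists, the rule and the tests were chosen with earlier results of these data known. Of the list members 5 were not found. Repeated words are 50-base words of a gene model found elsewhere in R64, and promoters were read from the RefSeq genome R64. The edgeR fit was also run on simulated counts in which 200 genes were changed, for the double mutant against cyc8 and for the interaction. The alternatives and snf2 against wt were not run on simulated counts. Alternatives were other scalings, filters, thresholds and libraries in the fit, dispersions without the robust option, DESeq2 1.42.0, limma-voom (limma 3.58.1), a replicate block and leaving out each library.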

Additional observations from a re-analysis of the deposited data

Results flagged for a closer look

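In single genes, 1 double mutant library stood apart from the other 3 in its group, as about 1 in 20 groups would by chance. These were FLO1 in replicate 4 (16.1 CPM), HXT2 in replicate 2 (6553 CPM), YNR071C in replicate 3 (57.4 CPM), and in replicate 1 SUC2 (325 CPM), HSP30 (39.0 CPM) and STE2 (112 CPM).

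The change from cyc8 to the double mutant differed from that from wt to snf2 in many named genes, by an interaction test in edgeR with adjusted p below 0.05. The interaction was negative on the log2 scale for wall genes: FLO1 -5.91, FLO5 -3.61, FLO9 -2.28, FLO10 -1.21, FLO11 -4.40, PAU13 -6.45, PAU5 -6.21, PAU24 -4.02 and TIP1 -1.17. TIP1 had -0.97 without wt replicate 3. Among sugar and carbon genes it was negative for HXT17 (-5.49), HXT1 (-2.25), DSF1 (-3.07), MAN2 (-1.70), YNR071C (-3.74), SUC2 (-3.99), IMA5 (-1.39), IMA2 (-1.47) and PDC5 (-2.35). The call of HXT1 was lost in 7 fits without 1 library (-2.04 to -2.31, adjusted p 0.0509 to 0.0909), those without cyc8 replicate 1 or 3, double mutant replicate 1 or 3, wt replicate 1 or either snf2 replicate. Stress, iron, amino acid and developmental genes with a negative interaction were HSP26 (-1.48), STL1 (-2.07), FIT2 (-5.29), FIT3 (-4.14), ARN1 (-2.20), GAP1 (-3.80), PUT4 (-3.99), DIP5 (-1.99), BNA2 (-4.34), GDH1 (-1.17), PDR11 (-1.38), IME1 (-2.95), DIT1 (-4.15), ACA1 (-1.58), MET6 (-1.66), MMP1 (-1.94), YPL025C (-1.18), YMR317W (-2.61) and YFL051C (-6.02). HSP26 had -1.33 with an adjusted p of 0.0918 without snf2 replicate 1.

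Positive interactions were found for TIR1 (3.11), HXT7 (2.68), HXT4 (2.00), ANB1 (1.13), HSP12 (1.96), GPH1 (2.68), GSY2 (1.74), PHO84 (4.97), PHO3 (1.81), PHO5 (3.27), PTR2 (6.28), QDR2 (5.47), RSB1 (5.18), VTC3 (3.11), YIL163C (2.06), MMO1 (2.10) and YMR316C-B (2.69). ANB1 had 0.97 without cyc8 replicate 3. Without snf2 replicate 2, HXT4 had 1.88 (adjusted p 0.0574) and HSP12 1.74 (adjusted p 0.0785).

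Outside the nuclear genes, 3 of 19 mitochondrially encoded genes tested were higher in the double mutant than in cyc8, against 0.878% of nuclear genes. They were ATP6 (log2 fold change 1.05 ± 0.33, edgeR adjusted p = 0.0495), VAR1 (1.09 ± 0.34, edgeR adjusted p = 0.0428) and Q0182 (1.25 ± 0.38, edgeR adjusted p = 0.0435). All 3 lay close to the limit of 0.05, and these calls were not examined under the alternatives. Mitochondrial genes held 0.189 to 0.242% of the counts in cyc8 and 0.27 to 0.335% in the double mutant.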

How the results depend on the processing

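For 100 named genes, 1890 values were taken under 19 settings, 7 of which left out a library of the comparison. None of the 19 changed the threshold. Of these values 1868 kept their direction and their side of the threshold. Of the 78 called genes named, 74 kept the call in all 19 settings, and HXT4, HXT10, FIT3 and MMP1 lost it in some. Stricter thresholds kept fewer of the 186 lower and 54 higher genes: 158 and 36 at an adjusted p below 0.01, and 85 and 15 with glmTreat. Of 418 list counts under alternatives 29 moved by over 1.5 times. The sign turned for TUP1 (0.00 under upper-quartile scaling, -0.11 to 0.02 without 1 library) and TRP1 (-0.05 to 0.09 without 1 library), which were not called. With no minimum fold 643 genes were lower and 525 higher, 1626 had an interaction and 2211 changed in snf2 against wt. Tested against a fold of 2 with glmTreat, these counts were 85, 15, 194 and 258. The higher genes numbered 18 with a mean of at least 100 counts and 16 without genes below 10 CPM in both groups, the latter chosen after seeing the data. Leaving out 1 cyc8 or double mutant library gave 173 to 188 lower and 37 to 57 higher genes. Without 1 wt or snf2 library there were 186 to 193 lower and 43 to 55 higher genes, and 483 to 635 genes in snf2 against wt. Without any 1 of the 12 libraries there were 463 to 572 interactions. DESeq2 called 199 lower and 54 higher genes, with 186 and 52 shared, and limma-voom 182 and 54, with 180 and 53 shared. Samples with the same replicate number did not deviate together (correlations -0.128, -0.045 and 0.004), so the numbers were not read as pairs. With the replicate as a block 178 genes were lower and 44 higher, 539 had an interaction and 590 changed in snf2 against wt. Leaving out models over 50% repeated, also chosen after seeing the data, left 156 lower and 52 higher genes. The median of all genes shifted by -0.021 with RLE and by 0.047 with upper-quartile scaling. Of the 54 higher genes 32 lay below 5 CPM, where counting error is larger.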

Other observations

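Some genes named nowhere above for the fall itself carry the pattern of a gene raised in cyc8 and low elsewhere. YFL051C, a flocculin-related open reading frame, had 40.1, 30.6 and 34.8 CPM in cyc8 and 2.02, 2.76, 2.94 and 3.19 CPM in the double mutant, against means of 0.204 CPM in wt and 1.10 CPM in snf2. It fell 12.9-fold (log2 fold change -3.69 ± 0.21, edgeR adjusted p = 2.99e-08). DIP5, the dicarboxylic amino acid permease, had the opposite background: 166 CPM in wt, 233 CPM in snf2, 5.10 ± 1.19 CPM in cyc8 and 1.83 ± 0.433 CPM in the double mutant, so that it was low in both groups with a cyc8 mutation and lowest with both (log2 fold change -1.51 ± 0.23, edgeR adjusted p = 0.000853).

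Amino acid, vitamin and noncoding gene lists added few calls. In arginine synthesis and breakdown 0 of 14 genes were called by edgeR (median 0.15, 2 lower and 6 higher at an unadjusted p below 0.05), where 9 were higher in snf2 against wt. Thiamine and biotin genes were lower in 3 of 25 cases (median -0.47), where 7 were higher in snf2 against wt. Small nucleolar RNAs were higher in 4 of 53 cases (median 0.21), or 0 when a mean of at least 100 counts was required. Of the ergosterol and sterol uptake genes 1 of 26 was lower (median -0.04).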
